A study of Mus musculus with 5 samples.

Results

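The genes described here are 10 genes of adult hippocampal neurogenesis, the production of new granule neurons in the dentate gyrus. They are *Sox4*, *Sox11*, *Neurod1*, *Eomes*, *Dcx*, *Tubb2b*, *Stmn1*, *Dpysl3*, *Igfbpl1* and *Calb2*, and they were picked by name as genes of neuroblasts and immature granule neurons, out of 23361 gene symbols in the data. The list was chosen from results already known for these same libraries, in which the expression of each gene in knockout and control hippocampus had been seen, so the knockout-control values of the 10 genes are given as a description without a test. RNA-seq was performed on whole hippocampus of mice aged 3 months. The control group (n = 2) carried the floxed *Hdac1* allele, *Hdac1* f/f, and no Cre, and is titled WT in the sample labels. The *Hdac1* cKO group (n = 3) carried *Hdac1* f/f together with *Nestin-Cre*, so both groups were homozygous for the floxed allele. Cre under the *Nestin* promoter acts in neural progenitors, and the study describes loss of HDAC1 in neurons and astrocytes with HDAC1 still present in microglia. The control group had no Cre, so an effect of the Cre transgene itself cannot be told apart from that of the deletion.

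In the adult dentate gyrus, radial glia-like stem cells give rise to dividing intermediate progenitors that express *Eomes*, which encodes TBR2. These become neuroblasts and then immature granule neurons, which express *Neurod1*, the SoxC factors *Sox4* and *Sox11*, and *Dcx*, before they mature and take up calbindin (*Calb1*). Immature neurons are rare cells in the whole hippocampus, and several of the genes are also used by other cells there, such as tubulin and stathmin genes by mature neurons and *Calb2* by interneurons and mossy cells. In bulk tissue, fewer cells of a type and less RNA per cell cannot be told apart.

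The values are FPKM, sequenced fragments scaled to transcript length and to the mapped fragments of the library, so that levels can be compared between genes. The 5 files summed to 565363 to 636705 FPKM, listed 12680 to 12745 genes at 1 FPKM or more, and corresponded to roughly 5100000 to 6800000 counted fragments per library. *Hdac1*, the deleted gene, measured 8.95 and 13.1 FPKM in controls against 1.95, 3.12 and 3.37 FPKM in cKO, which is 17.6% to 30.5% of the control mean (log2 fold change -1.66, SE 0.21, adjusted p = 0.219 by limma). The adjusted p of *Hdac1* ranged from 0.00389, with the library set as a further term (-1.74), to 0.825 over the alternative fits. The labels do not name the animals, and the study gives the group sizes as numbers of mice. The libraries fell into sets in which low values share the same steps. Control 1 and cKO 1 formed set 1, whereas control 2, cKO 2 and cKO 3 formed set 2. Pairs within a set shared 24.6% to 28.4% of low genes in the fullest window of ratios, against 3.71% to 4.64% for pairs across sets, so the genotype differences of the 10 genes are also given within each set, and those of the main other genes with the set as a term of the fit.

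The 10 genes covered a wide range of expression. *Stmn1* was the most abundant, followed by *Tubb2b* (*Stmn1* mean 2.31 times higher), *Calb2* (4.70 times below *Tubb2b*) and *Dpysl3* (2.08 times below *Calb2*). *Neurod1* came next, 1.65 times below *Dpysl3*, and each of these steps held in 5 of 5 libraries without overlap of the ranges. *Neurod1*, *Sox4* and *Sox11* were close to each other in FPKM. *Neurod1* exceeded *Sox4* in 3 of 5 libraries and *Sox4* exceeded *Sox11* in 3 of 5, so the order of these neighbours was not larger than their spread. *Dcx* was 4.28 times below *Sox11* in FPKM. *Igfbpl1* was below *Dcx* in 5 of 5 libraries by a mean of 1.63 times, though the ranges overlapped, and *Eomes* was lowest, 6.64 times below *Igfbpl1*.

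**Figure D1:**
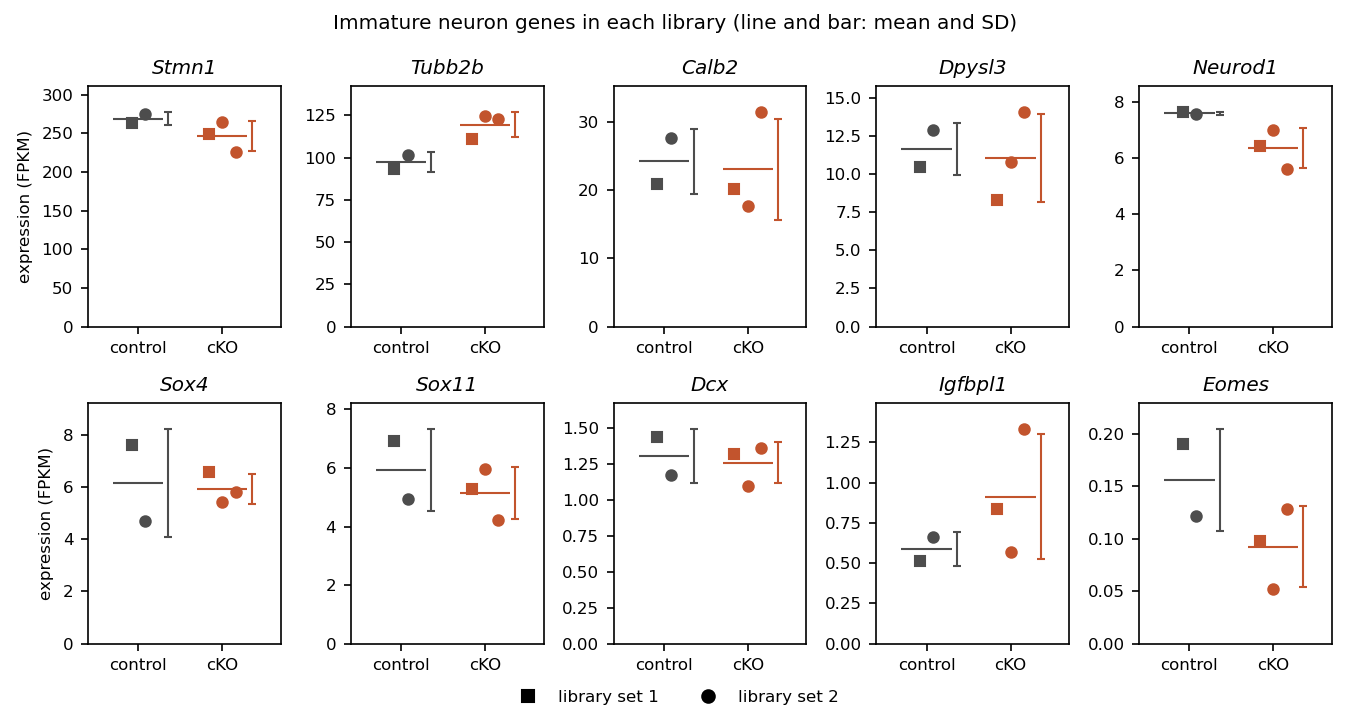
Expression (FPKM, linear axes from 0) of the 10 genes in the 2 control and 3 *Hdac1* cKO libraries, 1 point per library, with the group mean as a line, the SD as a bar and the library set as the marker shape. Only *Tubb2b* (all cKO points higher) and *Neurod1* (all cKO points lower) show no overlap between genotypes.

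Against the controls, 7 of the 8 genes that passed the filter of a mean of 1 FPKM had a log2 fold change below 0 and 1 was above 0, and all of these values were small, between 0.02 and 0.29 in size. The differences are on the log2(FPKM + 1) scale. *Igfbpl1* and *Eomes* did not pass the filter. The study's rule for a changed gene asked for a 1.5-fold difference together with an unadjusted p under 0.05, and 0 of the 8 genes reached that fold. Over all 12740 tested genes, 0.659% passed the rule, and 0.00785% (1 gene, the small nucleolar RNA gene *Snora30*, named after its value was seen) passed an adjusted p of 0.05 by limma. In *Tubb2b* every cKO library was above both controls, an arrangement found in 11.0% of all tested genes. In *Neurod1* every cKO library was below both controls, which held for 9.41% of all tested genes. The genotypes overlapped in the other 8 of the 10 genes. The median log2 fold change over the 8 genes was -0.09, beside 0.01 over all tested genes, and their median SE was 0.17 beside 0.13 over all tested genes. Since these libraries chose the list, nothing is read from these shares.

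**Figure D2:**
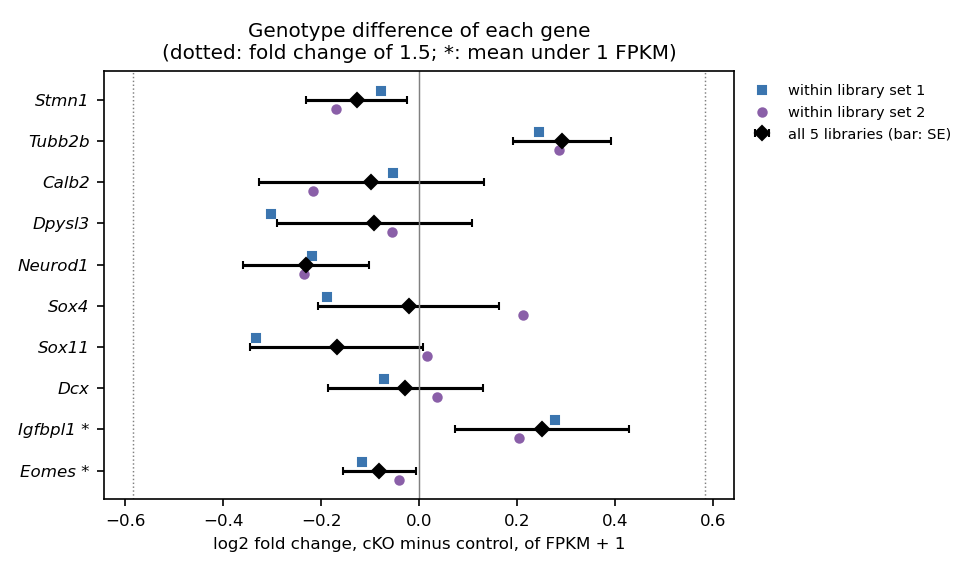
Log2 fold change (*Hdac1* cKO minus control, log2(FPKM + 1) scale) of each of the 10 genes with its SE, and the difference within each library set as separate markers. The differences lie between -0.23 (*Neurod1*) and 0.29 (*Tubb2b*), and the values of the sets stand on opposite sides of 0 for *Sox4*, *Sox11* and *Dcx*.

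The transcription factors were described first. *Neurod1* (ENSMUSG00000034701.8, chr2:79292678-79296908, minus strand; all gene positions are from the NCBIM37 assembly, the same build as mm9) encodes a basic helix-loop-helix factor required for the survival and maturation of newborn granule neurons. Expression was 7.64 and 7.57 FPKM in controls, against 6.43, 7.02 and 5.61 FPKM in cKO. Both controls were nearly equal and all 3 cKO libraries were lower. The mean was 7.61 ± 0.0521 (SD, n = 2) in controls and 6.36 ± 0.707 (SD, n = 3) in cKO, or 83.5% of the control mean, and the log2 fold change was -0.23 (SE 0.13). It was -0.22 within set 1 and -0.23 within set 2, and stayed between -0.30 and -0.16 when each library was left out. Of the 2729 exonic nucleotides of *Neurod1*, 201 are shared with *Cerkl* on the same strand and 154 lie opposite *Gm17325*.

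*Sox4* (ENSMUSG00000076431.3, chr13:29040788-29045582, minus strand) encodes a SoxC factor that promotes neuronal differentiation. Its controls were the extremes of the 5 libraries, at 7.63 and 4.71 FPKM, and the cKO libraries lay between them at 6.57, 5.41 and 5.81 FPKM. The means were 6.17 ± 2.06 (SD, n = 2) and 5.93 ± 0.586 (SD, n = 3), with a log2 fold change of -0.02 (SE 0.18). The sign was not stable. The log2 fold change was 0.28 without control 1, 0.033 without cKO 2 and 0.04 with the library set as a term, but -0.32 without control 2, and it was -0.19 within set 1 and 0.21 within set 2. Its 4795 exonic nucleotides overlap the antisense gene *Gm17419* over 2616 nucleotides, and whether the counting used strand was not stated, so reads of the pair cannot be separated.

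*Sox11* (ENSMUSG00000063632.5, chr12:28025562-28027574, minus strand) is the other SoxC gene of the list and has a single exon. It was at 6.93 and 4.95 FPKM in controls and at 5.29, 5.96 and 4.21 FPKM in cKO. Control 1 was the highest and cKO 3 the lowest, and the groups overlapped. The means were 5.94 ± 1.40 (SD, n = 2) and 5.15 ± 0.884 (SD, n = 3), with a log2 fold change of -0.17 (SE 0.18), which was -0.33 within set 1 and 0.02 within set 2. Without control 1 it became 0.04. The ratio of *Sox11* to *Sox4* FPKM was 0.908 and 1.05 in controls and 0.806, 1.10 and 0.724 in cKO, again overlapping.

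*Eomes* (ENSMUSG00000032446.8, chr9:118387330-118395250, plus strand), the T-box factor of intermediate progenitors, was close to the limit of detection. It was at 0.190 and 0.121 FPKM in controls and at 0.0976, 0.0521 and 0.128 FPKM in cKO, which corresponds to roughly 0.952 to 4.53 fragments per library. Control 1 was the highest library, and control 2 lay below cKO 3. The means were 0.156 ± 0.0488 (SD, n = 2) and 0.0925 ± 0.0381 (SD, n = 3). A difference in *Eomes* was not detectable at this depth.

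HDAC1 acts at promoters within corepressor complexes, and the upstream sequences of *Neurod1*, *Sox11* and *Sox4*, the 3 transcription factors above 1 FPKM, are shown for that reason. They are the 250 bases before the gene start from RefSeq on GRCm38.p6, a different build from that of the gene positions given here, at chr2:79456637-79456886, chr12:27342719-27342968 and chr13:28953700-28953949, all on the minus strand and written 5′ to 3′. Capitals mark the GC box GGGCGG or its reverse complement CCGCCC, the core letters bound by SP family factors.
Neurod1: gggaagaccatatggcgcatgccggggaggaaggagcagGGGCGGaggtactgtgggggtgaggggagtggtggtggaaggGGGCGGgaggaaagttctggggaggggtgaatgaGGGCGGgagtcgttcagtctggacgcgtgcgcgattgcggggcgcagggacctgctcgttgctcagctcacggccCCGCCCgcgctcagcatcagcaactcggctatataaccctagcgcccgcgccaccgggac
Sox11: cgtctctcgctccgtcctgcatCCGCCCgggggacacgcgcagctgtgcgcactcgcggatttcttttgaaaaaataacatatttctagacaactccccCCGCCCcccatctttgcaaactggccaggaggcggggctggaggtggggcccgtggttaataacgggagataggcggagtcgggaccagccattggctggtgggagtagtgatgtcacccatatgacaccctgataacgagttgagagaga
Sox4: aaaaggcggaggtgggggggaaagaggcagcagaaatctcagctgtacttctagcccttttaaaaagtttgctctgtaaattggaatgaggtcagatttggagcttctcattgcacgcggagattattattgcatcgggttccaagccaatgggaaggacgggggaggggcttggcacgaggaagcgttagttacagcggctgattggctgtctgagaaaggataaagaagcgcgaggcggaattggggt

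The *Neurod1* window holds 4 GC boxes and 67.6% G or C, the *Sox11* window 2 and 58%, and the *Sox4* window 0 and 50.8%. Of all 32851 promoter windows, 32.7% hold at least 1 GC box, and their median G or C content is 52.4%. Sequences were matched for 5 of the 10 genes, and 2 of the 5 hold a GC box. The E-box CAGATG, a letter pattern bound by NEUROD1 that was searched on both strands, occurred in none of the 5 and in 14.4% of all windows. These matches describe letters in the window and not binding.

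Among the cytoskeletal genes, *Tubb2b* (ENSMUSG00000045136.5, chr13:34218877-34222223, minus strand), a β-tubulin abundant in migrating and differentiating neurons, was the single gene of the 8 above 0. Its nearest relative *Tubb2a* is a β-tubulin with much the same coding sequence, so how well reads could tell them apart bears on the value. Of all 50-nucleotide stretches of the *Tubb2b* transcript, 38.0% (712 of 1873) also occur in transcripts of *Tubb2a*, *Tubb4* or *Tubb5*. The coding sequences of *Tubb2b* and *Tubb2a* are both 1338 nucleotides long, differ at 47 and are 96.5% identical, with a longest identical run of 551 nucleotides. A 60-nucleotide window of exon 2, coding positions 64 to 123, is among the stretches that do separate them, with 8 differences. It lies at chr13:34221158-34221217 in *Tubb2b* and chr13:34168461-34168520 in *Tubb2a* (NCBIM37, minus strand), and capitals mark the bases that differ.
Tubb2b: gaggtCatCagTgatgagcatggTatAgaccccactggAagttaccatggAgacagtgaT
Tubb2a: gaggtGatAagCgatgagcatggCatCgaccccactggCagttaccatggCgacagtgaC

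*Tubb2b* was at 93.3 and 101 FPKM in controls and at 111, 125 and 123 FPKM in cKO. All 3 cKO libraries were above both controls. The means were 97.4 ± 5.77 (SD, n = 2) and 119 ± 7.60 (SD, n = 3), or 123% of the control mean, with a log2 fold change of 0.29 (SE 0.10). It was 0.25 within set 1 and 0.29 within set 2, and ranged from 0.23 to 0.35 when each library was left out. *Tubb2a*, at 280 and 368 FPKM in controls and 299, 351 and 377 FPKM in cKO, overlapped between genotypes (log2 fold change 0.09). The ratio of *Tubb2b* to *Tubb2a* was 0.333 and 0.276 in controls and 0.370, 0.355 and 0.326 in cKO, so cKO 3 lay below control 1 on this scale. The summed FPKM of both genes was 373 and 469 in controls and 410, 476 and 500 in cKO (difference 0.14 on the log2 scale), with cKO 1 below control 2. A further stretch without an annotated gene, chr12:11887667-11889512, is 97.4% identical to *Tubb2b* over 1849 nucleotides. The part of shared reads in the *Tubb2b* value was not tested.

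*Stmn1* (ENSMUSG00000028832.5, chr4:134024235-134029758, plus strand) encodes stathmin, which binds tubulin dimers and promotes microtubule disassembly. It was at 263 and 275 FPKM in controls and at 249, 265 and 226 FPKM in cKO. Only cKO 2 exceeded a control, and then only control 1. The means were 269 ± 8.89 (SD, n = 2) and 247 ± 19.6 (SD, n = 3), with a log2 fold change of -0.13 (SE 0.10) that was -0.08 within set 1 and -0.17 within set 2. The pseudogene *Gm11223*, not listed in the data, holds a copy of *Stmn1* that is 99.5% identical over 970 nucleotides.

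*Dcx* (ENSMUSG00000031285.7, chrX:140290385-140367854, minus strand) encodes doublecortin, the microtubule-associated protein commonly used to mark neuroblasts and immature neurons. It was at 1.44 and 1.17 FPKM in controls and at 1.32, 1.10 and 1.36 FPKM in cKO. Control 1 was the highest and cKO 2 the lowest, and the other cKO libraries lay between the controls. The means were 1.31 ± 0.190 (SD, n = 2) and 1.26 ± 0.142 (SD, n = 3), with a log2 fold change of -0.03 (SE 0.16). It was -0.07 within set 1 and 0.04 within set 2, and changed sign without control 1 (0.06) or without cKO 2 (0.02).

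*Dpysl3* (ENSMUSG00000024501.13, chr18:43480633-43597940, minus strand) encodes CRMP4, a collapsin response mediator protein of growing axons. It was at 10.5 and 12.9 FPKM in controls and at 8.29, 10.8 and 14.1 FPKM in cKO, so the cKO libraries held both the lowest and the highest value. The means were 11.7 ± 1.72 (SD, n = 2) and 11.1 ± 2.92 (SD, n = 3), with a log2 fold change of -0.09 (SE 0.20). It was -0.30 within set 1 and -0.06 within set 2, and became 0.08 without cKO 1 and 0.05 without control 2.

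Of the remaining genes, *Calb2* (ENSMUSG00000003657.7, chr8:112661402-112692110, minus strand) encodes calretinin, a calcium-binding protein that young granule neurons express transiently. It was at 20.9 and 27.5 FPKM in controls and at 20.1, 17.6 and 31.5 FPKM in cKO, again with both extremes in the cKO group. The means were 24.2 ± 4.72 (SD, n = 2) and 23.0 ± 7.39 (SD, n = 3), with a log2 fold change of -0.10 (SE 0.23), the widest SE of the 8. It was -0.05 within set 1 and -0.22 within set 2, and became 0.09 without control 2 and 0.07 without cKO 2. *Igfbpl1* (ENSMUSG00000035551.6, chr4:45822340-45839795, minus strand), a secreted relative of the insulin-like growth factor binding proteins, was at 0.514 and 0.660 FPKM in controls and at 0.836, 0.567 and 1.33 FPKM in cKO. The highest libraries were cKO 3 and cKO 1, while cKO 2 lay between the controls. The values rest on roughly 8.35 to 24.1 fragments per library, and the means were 0.587 ± 0.103 (SD, n = 2) and 0.912 ± 0.389 (SD, n = 3).

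The genes did not share 1 pattern across libraries. Control 1 was the highest library for 5 of the 10 genes and cKO 3 for 3, while control 2 and cKO 2 were each highest for 1 (*Stmn1* and *Tubb2b*) and cKO 1 for 0. The lowest library was cKO 2 for 3 genes and cKO 3 for 3, control 1 for 2, and control 2 and cKO 1 for 1 each. Of the 14 alternative settings, 3 return the same fold by construction and 1 equals another, which leaves 10 that can move it. The direction of the genotype difference held under these 10 for *Neurod1*, *Tubb2b* and *Stmn1*, and it changed under at least 1 for the other 5 tested genes.

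**Figure D3:**
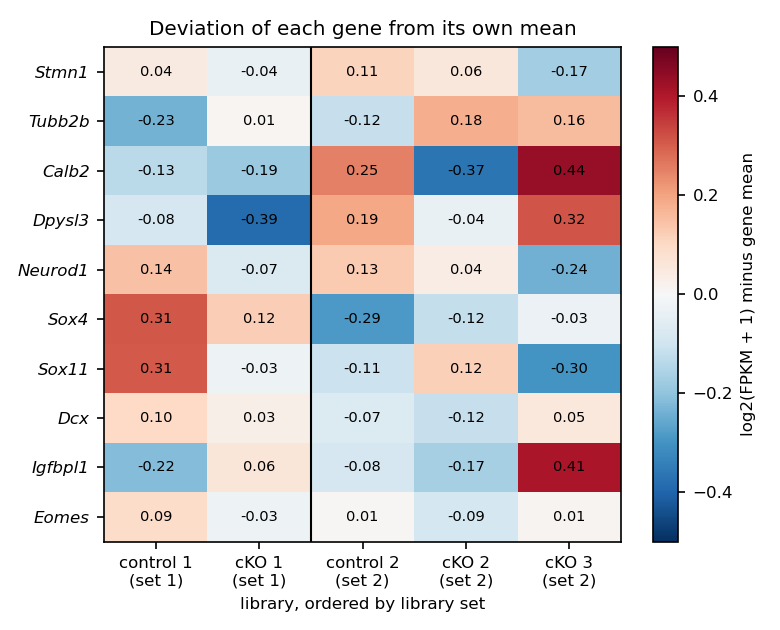
Deviation of each library from the gene's mean over the 5 libraries, on the log2(FPKM + 1) scale, for the 10 genes (rows) and 5 libraries (columns, ordered by library set), with the value in each cell. *Tubb2b* is negative in both controls and *Neurod1* positive in both, whereas *Sox4* is positive in set 1 and negative in set 2 and *Dpysl3* is lowest in set 1.

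A contrast that did not enter the choice of the genes is that between the library sets, tested with genotype as a further term in limma. At an unadjusted p under 0.05, 3 of the 8 genes differed between sets, beside 22.9% of all tested genes, and at an adjusted p under 0.05 none did, beside 3.09% of all tested genes. *Dpysl3* was higher in every library of set 2 (mean 12.6 FPKM) than in set 1 (9.37 FPKM), with a log2 difference of 0.42 (SE 0.13, unadjusted p = 0.0133 and adjusted p = 0.117 by limma). *Sox4* was lower in every library of set 2 (5.31 FPKM) than in set 1 (7.10 FPKM), with a log2 difference of -0.37 (SE 0.13, unadjusted p = 0.0239 and adjusted p = 0.152 by limma). *Tubb2b* differed by 0.14 (SE 0.06, unadjusted p = 0.0485 and adjusted p = 0.215 by limma) with the sets overlapping. For *Dpysl3* and *Sox4* the difference between sets was therefore larger in size than that between genotypes, and for *Tubb2b* it was smaller.

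The lineage around the 10 genes was described with 4 lists of other genes, 51 in all, of which 43 were tested. These lists and that of the relatives were also written with results of these libraries known, so their counts are a description and nothing is read from their shares. In the cKO libraries 2 of the 43 rose by the study's rule and 0 fell (4.65%, where all tested genes gave 0.659%), and 0 passed an adjusted p of 0.05. With the library set as a term, 1 (*Hopx*) passed it. Both genes that rose are in the list of radial glia-like stem cells (11 of 12 tested, 8 above 0 and 3 below, median log2 fold change 0.09 beside 0.01 over all tested genes). *Fabp7*, a brain fatty acid binding protein, was at 84.3 and 75.04 FPKM in controls and at 114, 146 and 173 FPKM in cKO (log2 fold change 0.83, SE 0.17, adjusted p = 0.955 by limma), and with the set term the values were 0.80 and adjusted p = 0.320. *Hopx*, a homeodomain protein of quiescent stem cells, was at 130 and 112 FPKM in controls and at 224, 166 and 181 FPKM in cKO (0.64, SE 0.14, adjusted p = 0.955 by limma), and with the set term the values were 0.69 and adjusted p = 0.0457, the lowest over its alternatives, which reached 1. All cKO libraries were above both controls for both genes. *Hopx* missed the fold of the rule without control 2 (0.53), without cKO 1 (0.51) and after scaling to a common total (0.57). *Gfap*, the intermediate filament of astrocytes and stem cells, was at 309 and 263 FPKM in controls and 374, 364 and 415 FPKM in cKO (0.43, SE 0.11, unadjusted p = 0.00542; 0.44 with the set term), short of the rule. *Fabp7*, *Hopx* and *Gfap* are also genes of mature astrocytes. *Hes5*, a Notch target that maintains stem cells, had a log2 fold change of -0.37 with overlapping groups, and -0.25 with the set term. The summed FPKM of the list was 582 to 685 in controls and 813 to 904 in cKO, and *Gfap*, *Hopx* and *Fabp7* carried the difference. The other 9 genes summed to 161 and 132 FPKM in controls and 172, 136.5 and 136 FPKM in cKO, which overlapped. How much of it came from astrocytes was not tested.

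Of the 11 genes of dividing progenitors, 5 were tested and 0 passed the rule, with a median log2 fold change of -0.01. The mitotic genes *Mki67*, *Top2a*, *Cdk1*, *Ccnb1* and *Birc5* and the proneural gene *Neurog2* had means under 1 FPKM and stood between 0 and 1.54 FPKM in single libraries. *Insm1*, a zinc finger factor of neurogenic progenitors, was at 5.47 and 2.37 FPKM in controls and 4.40, 2.16 and 1.61 FPKM in cKO (-0.40, and -0.24 with the set term). The cyclin *Ccnd2*, used by dividing progenitors of the adult dentate gyrus, was at 10.3 and 11.2 FPKM in controls and 11.8, 10.1 and 10.8 FPKM in cKO. Both overlapped between genotypes.

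Of 20 other immature neuron genes, 19 were tested and 0 passed the rule, 13 below and 6 above 0, with a median of -0.11. In 5 of them every cKO library was below both controls, beside 9.41% of all tested genes. *Dpysl5*, the relative of *Dpysl3* that encodes CRMP5, was at 3.27 and 3.35 FPKM in controls and at 2.06, 2.29 and 2.09 FPKM in cKO. Its log2 fold change was -0.46 (SE 0.13, unadjusted p = 0.00935 and adjusted p = 0.955 by limma), and -0.46 with the set term. A pseudocount of 0.1 in place of 1 gave -0.60 for *Dpysl5*, past the fold of the rule. *Stmn2*, the neuronal relative of *Stmn1*, was at 72.0 and 78.7 FPKM in controls and 61.7, 64.9 and 63.5 FPKM in cKO (-0.24). *Stmn2* was named after its value was seen. *Cd24a*, a surface glycoprotein of neuroblasts, went the other way, with 5.21 and 5.89 FPKM in controls and 5.70, 7.47 and 8.54 FPKM in cKO (0.32, SE 0.17), and its groups overlapped. The summed FPKM of this list was 1515 to 1542 in controls and 1439 to 1493 in cKO. In the list of mature granule neurons, 0 of 8 passed the rule and 4 stood on each side of 0 (median -0.01), and *Calb1* was at 43.6 and 54.1 FPKM in controls and 42.4, 54.5 and 49.7 FPKM in cKO. Over the 43 genes, 5 (11.6%) had an unadjusted p under 0.05, beside 4.36% of all tested genes.

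**Figure D4:**
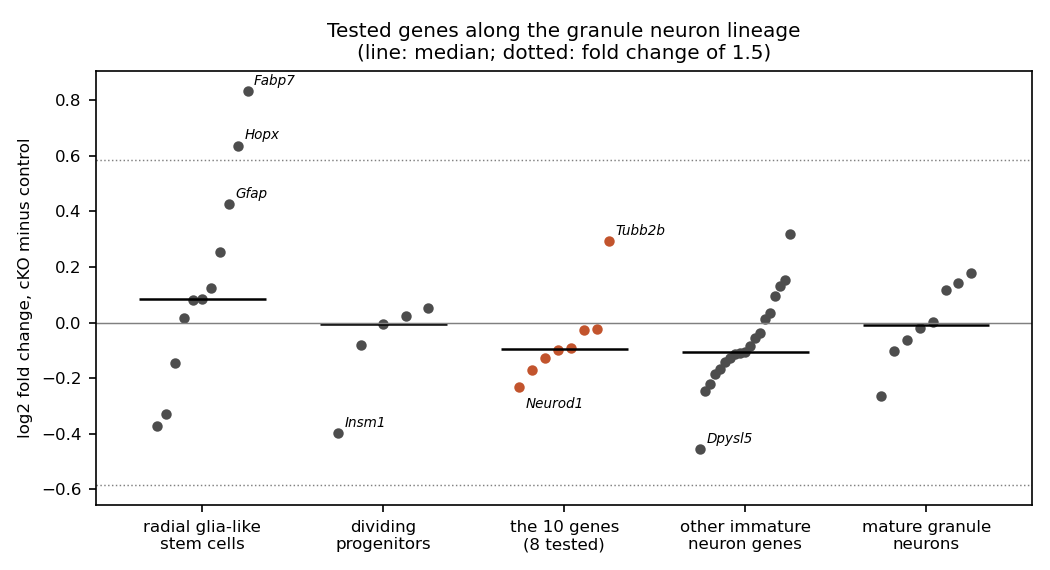
Log2 fold change (*Hdac1* cKO minus control, log2(FPKM + 1) scale) of the tested genes in order of the granule neuron lineage, 1 point per gene, with the list median as a line and the 1.5-fold threshold dotted. *Fabp7* and *Hopx* lie above the upper threshold, and the 8 tested genes of the main list lie between -0.23 and 0.29.

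The family members of the 10 genes gave a like comparison by protein class. Of 21 relatives, 20 were tested, 0 passed the rule, 15 were below and 5 above 0 (median -0.10), and 4 had an unadjusted p under 0.05, all lower in cKO, beside 4.36% of all tested genes. The relatives share 7 genes with the lists above, and *Dpysl5* and *Stmn2*, already counted there, are 2 of the 4. In 8 of the 20 every cKO library was below both controls, beside 9.41% of all tested genes. *Tubb4a* is a β-tubulin of mature neurons and oligodendrocytes and was named after its value was seen. It was at 68.7 and 69.4 FPKM in controls and 56.8, 52.7 and 57.9 FPKM in cKO. The log2 fold change was -0.30 (SE 0.09, unadjusted p = 0.0117 by limma), opposite in sign to *Tubb2b*. *Tbr1* is the T-box relative of *Eomes* that is expressed in postmitotic glutamatergic neurons. It was at 7.33 and 5.67 FPKM in controls and 5.05, 4.35 and 3.28 FPKM in cKO, with all cKO libraries lower. The log2 fold change was -0.53 (SE 0.18, unadjusted p = 0.0185 by limma), and -0.47 with the set term. A pseudocount of 0.1 in place of 1 gave -0.62 for *Tbr1* and -0.60 for *Dpysl5*, past the fold of the rule. *Dclk1*, the abundant relative of *Dcx*, was at 89.3 and 95.6 FPKM in controls and 86.5, 101 and 80.9 FPKM in cKO, and *Sox12*, the third SoxC gene, was at 3.78 and 3.41 FPKM in controls and 3.22, 2.09 and 3.00 FPKM in cKO. *Dclk1* overlapped, whereas *Sox12* was lower in every cKO library (-0.30).

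Markers of other cells that could carry these transcripts were summed in each library. For *Calb2*, 10 interneuron genes summed to 866 to 906 FPKM in controls and 869 to 889 FPKM in cKO, and 4 mossy cell genes to 7.11 to 11.0 FPKM and 10.8 to 12.0 FPKM, with 0 of the 12 tested past the rule. The mossy cell gene *Calcrl* was higher in every cKO library (0.31, unadjusted p = 0.0493 by limma). The interneuron sum is mostly *Cck* and *Sst*. Of the 10 interneuron genes, all tested, 6 were below and 4 above 0 (median -0.02). Their sum hides *Slc32a1*, the vesicular GABA transporter of inhibitory neurons. *Slc32a1* was at 8.40 and 8.50 FPKM in controls and 6.15, 4.201 and 6.31 FPKM in cKO, lower in every cKO library. Its log2 fold change was -0.54 (SE 0.17, unadjusted p = 0.0113 by limma), short of the rule. A pseudocount of 0.1 in place of 1 gave -0.62 for *Slc32a1*, past the fold of the rule. The 6 Cajal-Retzius genes summed to 7.79 to 9.05 FPKM and 9.09 to 10.4 FPKM. *Reln* and *Ndnf*, which each overlapped between genotypes, made up most of these sums. The other 4 genes had means under 1 FPKM. The 6 genes of subventricular zone neuroblasts, which also express *Dcx* and *Sox11*, summed to 5.66 to 7.53 FPKM in controls and 2.80 to 6.12 FPKM in cKO. *Dlx5* and *Dlx6* were listed at 0 in cKO 2. Of the 6, 5 had means under 1 FPKM, and the 1 tested gene, *Dlx1*, overlapped between genotypes. Which cells carried these 6 genes was not tested. The 10 genes of oligodendrocyte precursors, which express *Sox4* and *Sox11*, summed to 137 to 153 FPKM and 131 to 155 FPKM, with 0 past the rule. All 10 were tested, and 6 were below and 4 above 0 (median -0.03). Within that sum, *Bcas1* (0.32, unadjusted p = 0.0240 by limma) and *Enpp6* (0.46, unadjusted p = 0.0471 by limma) were higher in every cKO library. Both are genes of differentiating oligodendrocytes. *Enpp6* had low means, 0.959 FPKM in controls and 1.71 FPKM in cKO. A pseudocount of 0.1 in place of 1 gave 0.77 for *Enpp6*, past the fold of the rule. The lineage factor *Olig2* was at -0.36 with overlapping groups. The 6 thalamic genes summed to 16.9 to 17.0 FPKM in controls and 14.4 to 14.6 FPKM in cKO, and *Slc17a6*, the vesicular glutamate transporter of thalamic neurons, was the single gene of these lists that fell by the rule (6.08 and 6.09 FPKM in controls, 3.94, 4.51 and 2.62 FPKM in cKO, log2 fold change -0.62, SE 0.19, adjusted p = 0.955 by limma). *Slc17a6* made up most of the difference in the sum. Of the 4 thalamic genes tested, 2 were below and 2 above 0 (median -0.09), with *Lef1* at -0.24, *Prkcd* at 0.10 and *Rgs16* at 0.05 on the log2 scale. *Tcf7l2*, under the filter, measured 1.06 FPKM in each control library and 0.961, 0.424 and 0.696 FPKM in cKO. *Rgs16* and *Tcf7l2* were named after their values were seen. With the set term *Slc17a6* was at -0.60. Without cKO 3 its log2 fold change was -0.44, short of the rule. A replicate block, which fits cKO 3 by itself, gave the same value. The 6 choroid plexus and ependymal genes ranged from 11.3 to 169 FPKM in controls and from 31.4 to 600 FPKM in cKO, and *Ttr*, which overlapped between genotypes, made up most of that range. The 8 genes of hippocampal principal neurons summed to 604 to 659 FPKM in controls and 522 to 629 FPKM in cKO, and 0 of them passed the rule. The part of these cells in the values of the 10 genes was not tested.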

How the data were processed

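The members and gene lists were chosen with earlier results of these data known. Total RNA of whole hippocampus was sequenced after TruSeq library preparation. The authors aligned reads with Tophat2 and deposited FPKM from Cufflinks 2.0.0 with the UCSC mm9 annotation. FPKM are not counts, so no count test was used, and depth was approximated from the value of 1 fragment in single-transcript genes of at least 1000 nucleotides, without an interval. Whether counting used strand, and the test behind the study's P, are not given in the sources used here.

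Genes averaging 1 FPKM or more over the libraries (12740) were tested with limma 3.58.1 in R 4.3.3 on log2(FPKM + 1) with a mean-variance trend and genotype as the only term, two-sided, with Benjamini-Hochberg adjustment over all tested genes. The fold change on this scale understates that of low genes. Fold changes of *Igfbpl1* and *Eomes* in the plot come from the fit without the filter. The call rule required a 1.5-fold change and an unadjusted p under 0.05. Library sets were libraries sharing over 10% of genes under 0.3 FPKM in a window of 0.05 log2 units. All members were named, and from each list the genes past the rule, the 2 with the highest mean and the 2 with the largest absolute log2 fold change, from which examples are given, with further genes marked as such or given for their role. For *Sox4*, which has a second gene model, the longest was used. Copies of at least 95% identity over 100 nucleotides were searched with BLAST 2.17.0. The limma step was tested on simulated data. Alternatives were a pseudocount of 0.1, no filter, a minimum of 5 FPKM, 3 other scalings, no trend, the replicate number or the library set as a block, and each library left out.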

Additional observations from a re-analysis of the deposited data

How the results depend on the processing

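For the 8 tested genes, over the 10 alternatives that can move a fold, 78 single values moved by less than the spread between libraries and 2 by more, both *Sox4* (0.28 without control 1 and -0.32 without control 2). Their median log2 fold change, -0.09, was -0.16 after scaling to a common total, where the median of all genes moved to -0.04, and from -0.10 to -0.033 (without cKO 2) as each library was left out. The count of genes past the study's rule, 84, became 142 with a pseudocount of 0.1 and 43 with a minimum of 5 FPKM, and 92 to 231 with a library left out (152 without control 1, 231 without control 2, 148 without cKO 1). The count at an adjusted p of 0.05, 1, became 5 with the library set as a block and 1 to 5 with a library left out. Of the lineage genes, 2 passed the rule, and 3 with a pseudocount of 0.1. That count was 1 after scaling to a common total and 2 to 3 with a cKO library left out. The count between library sets, 394, became 0 without the filter or without the variance trend, 676 with a minimum of 5 FPKM, 1093 after scaling to a common total, and 87 to 1454 with a library left out (116 without control 1, 126 without control 2, 87 without cKO 1, 1454 without cKO 2). The cause was not tested.

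Replicate numbers are shared between genotypes only for 1 and 2. Deviations from the group mean correlated at 0.402 and 0.269 over genes for same-numbered libraries. Control 2 and cKO 3, in the same library set, also correlated at 0.151, and the numbers were not taken as pairs. The deviations of the 2 controls are equal in size and opposite in sign. Each correlation with control 1 is thus the negative of that with control 2. With the replicate block, 133 genes passed the rule and 14 an adjusted p of 0.05. The members' median was -0.06, and *Hdac1* was at -1.77 (adjusted p = 0.0115 by limma). This block fits cKO 3 by itself, since its number occurs only in cKO. The folds are therefore those found without cKO 3. With 2 controls and roughly 5100000 to 6800000 fragments per library, a low gene such as *Eomes* cannot be compared.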
